A study of Mus musculus with 30 samples.

Results

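The activators of the circadian clock were followed in mouse liver RNA as the 3 genes *Arntl* (also called *Bmal1*), *Clock*, and *Npas2*. They were taken by symbol from the time course, whose table listed 54429 genes, and by Ensembl identifier from the genotype experiment, whose table listed 55471 genes, and all 3 were found in both. The time course held liver of male wild-type C57BL/6J mice at 2, 6, and 12 months of age, collected at zeitgeber time (ZT, hours after lights on) 1, 5, 9, 13, 17, and 21, with 1 library for each age and ZT (18 libraries). The genotype experiment held 12 libraries, 1 each of wild-type (WT) littermates and of mice with a liver-specific knockout (KO) of *Egr-1*, at each age and at each of the collections named H and L. In the KO, floxed *Egr-1* was removed by Cre under the *Alb* promoter, which is active in hepatocytes, and the line, of strain 129 origin, was backcrossed to C57BL/6J. H and L were the times of highest and lowest Egr-1 protein at each age, by the study's methods ZT13 and ZT17 at 2 months, ZT9 and ZT21 at 6 months, and ZT5 and ZT21 at 12 months. All mice were male, ate chow freely, and lived in equal periods of light and dark. The study's captions give several animals per group, but whether their RNA was pooled in a library is not stated, and p-values measure the spread between these libraries.

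BMAL1, the protein of *Arntl*, pairs with CLOCK or with its close relative NPAS2, and the pair binds E-box sequences and switches on *Per*, *Cry*, *Nr1d1*, *Nr1d2*, and output genes such as *Dbp*. PER and CRY proteins then block the pair. REV-ERB proteins (*Nr1d1*, *Nr1d2*) repress and ROR proteins activate genes with ROR elements, among them *Arntl*, *Clock*, and *Npas2*, and in liver this second loop makes *Arntl* RNA rise late at night and fall during the day. The study asked how the rhythms of the hepatic clock and of lipid metabolism change with age and with the loss of *Egr-1*, an immediate early transcription factor.

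On GRCm38, *Arntl* (ENSMUSG00000055116) lies on chromosome 7 from 113207465 to 113314126 on the plus strand, *Clock* (ENSMUSG00000029238) on chromosome 5 from 76209868 to 76304792 on the minus strand, and *Npas2* (ENSMUSG00000026077) on chromosome 1 from 39193731 to 39363236 on the plus strand. All are protein-coding. Counts cover all annotated exons of a gene, so transcripts of a gene were not told apart. The antisense gene *Gm45355* shares exonic bases with *Arntl* but had at most 2 counts in any library. The pseudogene *Ube2n-ps1*, inside *Clock* but outside its annotated exons, had up to 119 counts.

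The promoters are shown because the activators move together over the day and because REV-ERB and ROR proteins are known to act on them. RefSeq gave 6 windows for the 3 genes (GRCm38.p6, 250 bases before to 50 after a start site): 2 for *Arntl*, 3 for *Clock*, and 1 for *Npas2*. Each was searched on both strands for 5 motifs, and no match of one overlapped a match of another: AGGTCA, the core of ROR and REV-ERB elements, CACGTG, the E-box, TTATGNAA, the D-box, GCGNGGGCG, the Egr site, and ATTGG, the reverse of the CCAAT box. AGGTCA was found in 1 window of *Arntl* and 1 of *Clock*, against 16.3% of all 32851 RefSeq windows of 300 bases. The *Arntl* match lies on the plus strand, 32 bases past the later of its start sites, and the *Clock* match lies on the minus strand relative to the gene, 119 bases before the innermost start site, between annotated exons of the gene. Capitals mark the match in each.
Arntl, chr7:113207530-113207559, plus strand: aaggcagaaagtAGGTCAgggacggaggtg
Clock, chr5:76303604-76303633, minus strand: agctttggcctcTGACCTgacagatgacag

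The window of the first *Arntl* start site held ATTGG 8 times, all on the gene's own strand. Of all windows, 37.4% held it at least once on either strand, and the share with 8 matches was not counted. The 250 bases before that start site are given with ATTGG in capitals.
Arntl, chr7:113207215-113207464, plus strand: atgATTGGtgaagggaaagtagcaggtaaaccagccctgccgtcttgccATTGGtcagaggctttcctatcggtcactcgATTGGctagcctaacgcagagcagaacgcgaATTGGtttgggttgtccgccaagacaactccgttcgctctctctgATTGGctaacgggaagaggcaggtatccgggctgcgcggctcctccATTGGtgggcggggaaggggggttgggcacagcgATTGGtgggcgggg

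CACGTG, TTATGNAA, and GCGNGGGCG were in none of the 6 windows, and 7.15%, 3.38%, and 5.55% of all windows held them. The *Npas2* window held none of the 5 motifs. These matches describe letters within 300 bases and no binding was measured.

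Total counts ranged from 13375377 to 16557378 in the time course and, in the genotype experiment, from 18764485 to 21748956 at H and from 13747706 to 16633981 at L. The 6 hepatocyte markers summed to 53900 to 129000 counts per 1000000 (CPM) in the time course and to 40000 to 89600 CPM in the genotype experiment, far above the 5 lymphocyte markers (2.99 to 12.5 CPM over both experiments). In the time course, the hepatocyte sum was lowest, and the sum of the 4 neutrophil markers highest (135 CPM, against 1.89 CPM in the lowest library), in the library of 6 months at ZT5. In bulk liver, fewer cells of a type and less RNA per cell cannot be told apart.

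*Arntl* RNA was high from late night to early morning and nearly absent in the late day at every age. At 2 months its levels at ZT1, 5, 9, 13, 17, and 21 were 21.2, 4.61, 0.755, 2.62, 13.7, and 21.4 CPM, here and below scaled with edgeR's TMM factors. At 6 months the values at the same times were 19.95, 17.6, 2.16, 1.09, 6.29, and 20.4 CPM. At 12 months they were 17.2, 10.7, 0.788, 1.5, 9.70, and 18.9 CPM. ZT1 and ZT21 gave the highest libraries at each age, with overlapping intervals, and the lowest was ZT9 at 2 and 12 months and ZT13 at 6 months. The highest library exceeded the lowest by 28.4-fold at 2 months, 18.7-fold at 6 months, and 24-fold at 12 months.

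*Clock*, whose protein is the partner of BMAL1 and has a histone acetyltransferase activity, varied less over the day. At 2 months its levels at ZT1, 5, 9, 13, 17, and 21 were 61.4, 39.3, 26.6, 28.0, 50.0, and 61.4 CPM. At 6 months they were 68.2, 45.7, 44.5, 21.3, 34.6, and 55.7 CPM. At 12 months they were 53.8, 44.2, 28.0, 22.7, 35.3, and 50.9 CPM. ZT1 was the highest library at each age, at 2 months level with ZT21, and the span from lowest to highest was 2.31-fold, 3.20-fold, and 2.37-fold at 2, 6, and 12 months.

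*Npas2*, which can stand in for *Clock* as the partner of BMAL1, was read mainly between ZT21 and ZT5. At 2 months its counts at ZT1, 5, 9, 13, 17, and 21 were 130, 0, 0, 0, 16, and 88. At 6 months they were 103, 73, 2, 0, 4, and 32, and at 12 months 78, 50, 2, 0, 0, and 42. In CPM the highest library, at ZT1, was at 9.01, 7.78, and 4.96 at 2, 6, and 12 months. A count of 3 was taken as the floor of detection, and 3 libraries at 2 months, 2 at 6 months, and 3 at 12 months lay at or below it. Against that floor in each library at 0 counts, the ZT1 level was at least 43.8-fold, 40.4-fold, and 29.1-fold higher.

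**Figure D1:**
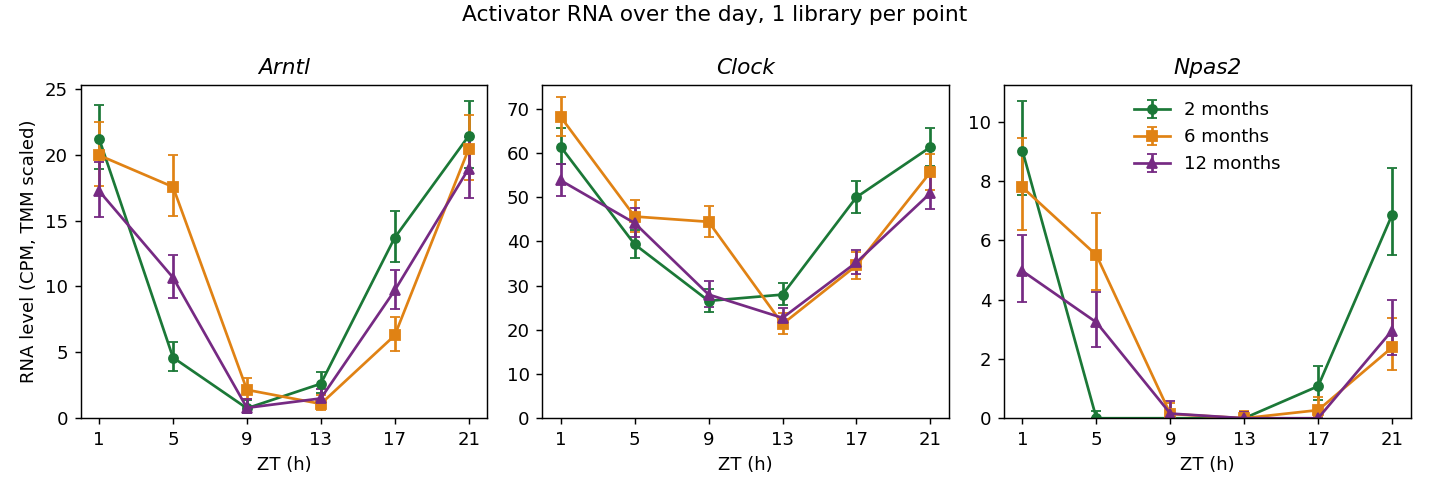
RNA level in CPM (linear axes from 0) against ZT in hours for *Arntl*, *Clock*, and *Npas2*; each point is 1 library, colours and symbols mark the age, and bars are exact Poisson 95% intervals, which cover counting error only. At ZT5 *Arntl* was at 4.61 CPM at 2 months, 17.6 CPM at 6 months, and 10.7 CPM at 12 months, and *Npas2* had 0, 73, and 50 counts.

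Levels of different genes were compared per exon length, as FPKM (counts scaled to the library total and to the exon length of the gene). In the time course *Clock* was the highest and *Npas2* the lowest of the activators in 18 of 18 libraries, with medians of 3.24 FPKM for *Clock*, 1.43 FPKM for *Arntl*, and 0.143 FPKM for *Npas2*. In the genotype experiment *Npas2* was the lowest in 12 of 12 libraries, *Clock* was the highest in 8, and *Arntl* was the highest in the other 4. *Arntl* reached 2.77 FPKM in the time course and 4.29 FPKM in the genotype experiment, whose tables were counted separately.

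**Figure D2:**
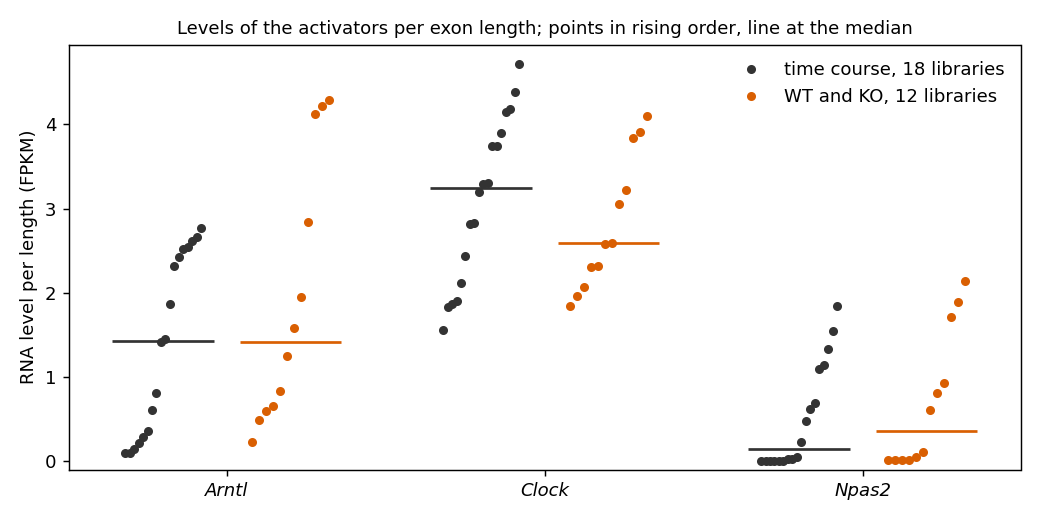
FPKM (linear axis) of each activator in the 18 time-course libraries and the 12 libraries of WT and KO; points are libraries in rising order and lines are medians. *Npas2* lay lowest in each library, and the highest *Arntl* values, up to 4.29 FPKM, were in the genotype experiment.

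To test for a rhythm within each age, a curve of 24 h was fitted to the counts of the 18 libraries with edgeR, with a separate curve for each age. All 3 activators passed at each age, where the share of all 14268 genes that passed was 4.72% at 2 months, 4.62% at 6, and 3.53% at 12. The amplitude, the distance from the middle to the top of the curve on the log2 scale, was 2.22 ± 0.32 (SE) for *Arntl* at 2 months, 2.08 ± 0.32 at 6 months, and 1.99 ± 0.32 at 12 months (edgeR adjusted p = 0.00209, 0.00368, and 0.00793). For *Clock* the amplitude was 0.69 ± 0.11, 0.65 ± 0.11, and 0.62 ± 0.11 (edgeR adjusted p = 0.00285, 0.00489, and 0.0101). For *Npas2* it was 5.19 ± 0.92, 3.64 ± 0.65, and 3.77 ± 0.73 (edgeR adjusted p = 0.000452, 0.00148, and 0.00383), values that depend on the prior count given to libraries at 0. Without ZT17 or ZT21 the *Npas2* amplitude at 2 months was 9.03 or 8.64. Without the ZT13 library the calls of *Arntl* and *Clock* were lost at 6 months (adjusted p = 0.0563 and 0.0924) and at 12 months (0.0694 and 0.0963), and the *Npas2* calls held.

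A rank-based permutation test in the manner of JTK_cycle, exact and two-sided, which uses only the order of the 6 values of an age, cannot give a p under 0.0333, and 8.66%, 8.18%, and 6.43% of 12470 genes reached that value at 2, 6, and 12 months of age, respectively. The exact p was not adjusted over genes. For *Arntl* it was 0.0333 at 2 months and 0.133 at the later ages. For *Clock* it was 0.133 at 2 months and 0.0333 at the later ages. For *Npas2* it was 0.2, 0.0333, and 0.0667 at 2, 6, and 12 months, with ties at 0 counts.

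The fitted peaks lay around lights on and came in the order *Arntl*, *Clock*, *Npas2* at each age, and neighbours in that order were between 0.11 ± 0.70 h and 1.14 ± 0.82 h apart (± the root of the summed squared SE). At 2 months they were at ZT21.72 ± 0.51 (SE, in h), ZT22.27 ± 0.58, and ZT22.38 ± 0.40. At 6 months they were at ZT0.24 ± 0.55, ZT1.22 ± 0.62, and ZT1.57 ± 0.49, and at 12 months at ZT23.0 ± 0.57, ZT0.07 ± 0.65, and ZT1.21 ± 0.50. The gap from *Arntl* to *Npas2* was 0.66 ± 0.65 h at 2 months, 1.32 ± 0.74 h at 6 months, and 2.21 ± 0.76 h at 12 months, with no test of the gap itself. The peaks of an age come from the same libraries, and the ± of a gap takes no account of that.

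**Figure D3:**
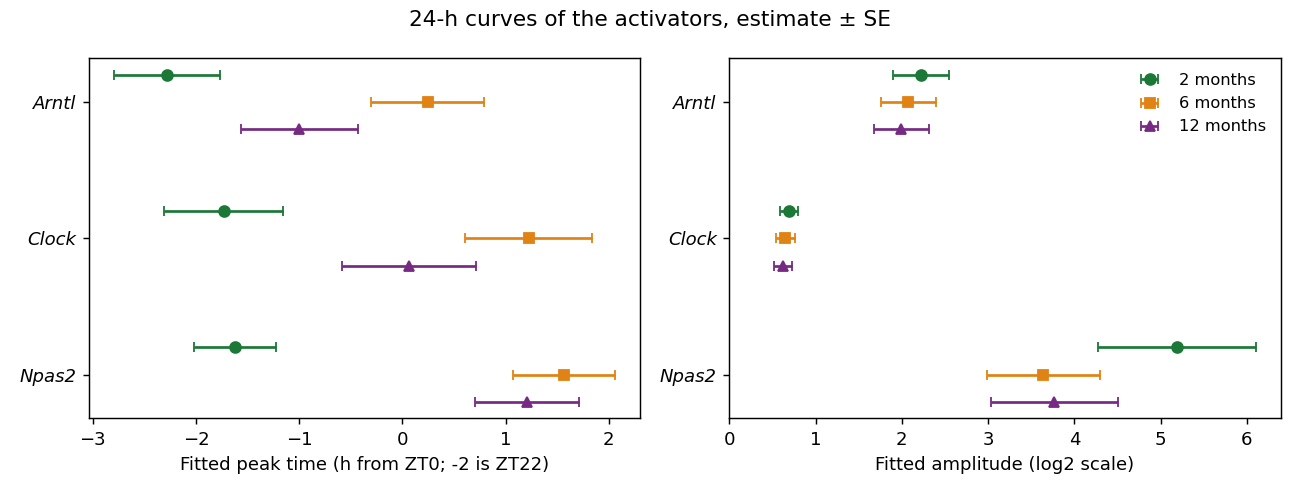
Fitted peak time (left, in h from ZT0, so that -2 is ZT22) and amplitude (right, log2 scale) of each activator at 2, 6, and 12 months; points are edgeR estimates and bars their standard errors. For each activator the 2-month peak was the earliest and the 6-month peak the latest, from ZT21.72 to ZT0.24 for *Arntl*.

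The rhythms of 6 and 2 months were compared by testing amplitude and peak time together. None of the activators passed, where 32 of 13895 genes (0.23%) did. The 6-month peak was later than the 2-month peak by 2.52 ± 0.63 h for *Arntl* (edgeR unadjusted p = 0.00428, adjusted p = 0.177), by 2.95 ± 0.89 h for *Clock* (unadjusted p = 0.0201, adjusted p = 0.316), and by 3.18 ± 0.58 h for *Npas2* (unadjusted p = 0.000447, adjusted p = 0.0876). Amplitudes at 6 minus 2 months differed by -0.15 ± 0.38, -0.04 ± 0.16, and -1.54 ± 1.03 on the log2 scale. For *Npas2* this was -5.04 without ZT17, -4.93 without ZT21, -0.45 without ZT5, and -0.86 with a prior count of 2. With ZT5 left out at both ages, which removes the 6-month library with the most neutrophil RNA, the shifts were 1.56 h for *Arntl*, 3.73 h for *Clock*, and 1.80 h for *Npas2*, and the part of those cells in the result was not tested. With ZT1 left out, *Npas2* passed (4.65 h, edgeR adjusted p = 0.0218), in a fit that called 103 genes, against 32 in the main fit.

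Between 12 and 2 months 0 of 14001 genes (0%) passed in edgeR, 623 had an unadjusted p under 0.05, and DESeq2 called 23. The peak at 12 months was later by 1.28 ± 0.69 h for *Arntl* (unadjusted p = 0.157, adjusted p = 1), 1.82 ± 0.66 h for *Clock* (unadjusted p = 0.0392, adjusted p = 1), and 2.83 ± 0.64 h for *Npas2* (unadjusted p = 0.00185, adjusted p = 0.783). Without ZT21, *Npas2* passed (4.81 h, edgeR adjusted p = 0.0343), in a fit that called 4 genes. Amplitudes at 12 minus 2 months differed by -0.24 ± 0.41, -0.08 ± 0.11, and -1.43 ± 1.17, and for *Npas2* this was -5.77 without ZT17, -3.78 without ZT21, -0.67 without ZT1, and -0.13 without ZT5. Between 12 and 6 months, where 3 of 14047 genes (0.0214%) passed, the peak moved by -1.23 ± 0.79 h for *Arntl*, -1.13 ± 0.98 h for *Clock*, and -0.35 ± 0.63 h for *Npas2* (edgeR adjusted p = 0.746, 0.864, and 0.96). The comparisons with 2 months share the 2-month libraries and those with 6 months the 6-month libraries.

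Single times show where the curves parted, with 1 library for each value and intervals that cover counting error only. At ZT5, *Arntl* at 6 months was 3.81 times (95% interval 2.92 to 5.02) and at 12 months 2.32 times (1.75 to 3.09) its 2-month level. *Npas2* had 0 counts at ZT5 at 2 months, and its levels at 6 and 12 months were at least 29.5-fold and 17.3-fold above the floor there. *Clock* differed little at ZT5 (1.16 times, 1.04 to 1.30, at 6 months) and most at ZT9, where 6 months was at 1.67 times (1.47 to 1.91) the 2-month level. On the rising side, at ZT17, 6 months was below 2 months for each activator, at 0.459 times (0.355 to 0.590) for *Arntl*, 0.691 times (0.616 to 0.775) for *Clock*, and 0.253 times (0.0616 to 0.785) for *Npas2*. *Npas2* was also lower at ZT21, at 0.348 times (0.225 to 0.527) at 6 months and 0.431 times (0.291 to 0.630) at 12 months, relative to 2 months.

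The mean level over the day did not pass the test between any ages for any activator, where 11.5% of genes passed for 6 against 2 months (5.53% higher and 6.01% lower at 6 months), 14.5% for 12 against 2 months (7.67% higher and 6.85% lower at 12 months), and 10.2% for 12 against 6 months (5.24% higher and 5% lower at 12 months). With ZT as a block, the log2 fold change of 6 over 2 months was 0.07 ± 0.36 (SE, 95% interval -0.85 to 0.99) for *Arntl*, -0.01 ± 0.14 (-0.38 to 0.36) for *Clock*, and 0.11 ± 0.85 (-2.07 to 2.29) for *Npas2*. For 12 over 2 months it was -0.08 ± 0.20 (-0.60 to 0.44), -0.17 ± 0.09 (-0.41 to 0.07), and -0.33 ± 0.77 (-2.32 to 1.66). For 12 over 6 months it was -0.15 ± 0.20, -0.16 ± 0.11, and -0.48 ± 0.34. The lowest adjusted p from edgeR over these 9 comparisons was 0.263, for *Clock* at 12 against 2 months. For *Npas2* the intervals of 6 and of 12 over 2 months leave room for changes of over 2-fold in either direction.

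The other clock genes were described from a list of 34, of which 32 were tested for rhythm. Of these, 16 passed at 2 months, 15 at 6 months, and 16 at 12 months. Among repressors and receptors, *Per2*, *Per3*, *Cry1*, *Ciart*, *Nr1d1*, and *Nr1d2* passed at each age, as did the outputs *Dbp*, *Tef*, *Hlf*, *Nfil3*, and *Bhlhe41*, while *Rora* did not pass. *Nr1d1*, which encodes the repressor REV-ERBα, peaked at ZT6.44 ± 0.31, ZT9.65 ± 0.45, and ZT7.41 ± 0.43 at 2, 6, and 12 months, ahead of the lowest libraries of *Arntl*. It was the only gene of the list to pass for a change of rhythm between 6 and 2 months (3.22 ± 0.45 h later and an amplitude lower by 0.92 ± 0.32, edgeR adjusted p = 0.0143). Over the tested genes of the list, rhythmic or not, the median shift of the fitted peak was 2.5 h later at 6 than at 2 months. At 12 against 2 months that median was 1.45 h later. *Dbp*, an output that BMAL1 and CLOCK drive, peaked at ZT9.07, ZT11.8, and ZT10.3. *Nfil3*, a repressor at D-boxes, peaked at ZT20.7, ZT1.46, and ZT22.6. In level, *Cry2* and *Kat2b* fell from 2 to 6 months (log2 fold changes of -0.61 and -0.57), *Kat2b* and *Wee1* rose from 6 to 12 months (0.42 and 0.87), and none passed between 2 and 12 months. *Arntl2*, the paralog of *Arntl*, had between 0 and 11 counts in each time-course library.

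Likeness of pattern was measured as Pearson's r of log2(CPM + 0.5) over the 18 time-course libraries in 12470 genes. It is given as a description, since libraries share age and time of day. *Arntl* was most like *Chka* (r = 0.969), a choline kinase, *Lrfn3* (0.963), *Fpgs* (0.956), which adds glutamates to folates, and *Lgalsl* (0.947). It was least like *Ciart* (-0.954), a repressor of BMAL1 and CLOCK, *Dbp* (-0.941), and *Uri1* (-0.937). Over the 12 genotype libraries these genes gave r from 0.889 to 0.976 at the high end and from -0.888 to -0.362 at the low end. *Clock* was most like *Insig2* (0.946), which holds SREBP in the endoplasmic reticulum, *Slc30a10* (0.944), a manganese exporter, *Trim2* (0.941), *Clpx* (0.938), a subunit of a mitochondrial protease, and *Caprin1* (0.932), and least like *Dclre1a* (-0.937), *Pcsk4* (-0.924), and *Fam76a* (-0.917). *Npas2* was most like *Asap2* (0.926), *Bok* (0.922), *Loxl4* (0.922), *Clpx* (0.909), and *Ypel2* (0.908), and least like *Tef* (-0.921), *Per3* (-0.882), and *Dbp* (-0.877). Between the activators r was 0.891 for *Arntl* and *Clock*, 0.844 for *Arntl* and *Npas2*, and 0.852 for *Clock* and *Npas2*. *Clock* was the gene in place 33 by likeness to *Arntl*, and *Npas2* the gene in place 74.

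In the genotype experiment the targeted gene was read first. *Egr1* was lower in the library labelled KO in 4 of 6 pairs, at 1.99 against 2.57 CPM at 2 months H, 5.54 against 72.4 CPM at 6 months H, 4.92 against 24.95 CPM at 6 months L, and 1.53 against 54.8 CPM at 12 months L. It was not lower in the libraries labelled KO at 2 months L (7.43 against 1.45 CPM) and at 12 months H (6.11 against 5.83 CPM). The library labelled KO at 2 months L also had the highest summed neutrophil markers (29.3 CPM, against 0.777 CPM in the lowest library) and macrophage markers (428 CPM, against 260 CPM in the lowest) of the 12, whose part in the results was not tested. Cells other than hepatocytes keep *Egr-1* in this model, and which part of the gene was deleted was not analysed here.

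Over the 6 pairs none of the activators passed the test between WT and KO, where 202 of 14843 genes (1.36%) did (0.64% higher and 0.721% lower in the KO). The log2 fold change of KO over WT was -0.35 ± 0.29 (SE, 95% interval -1.09 to 0.39) for *Arntl*, 0.07 ± 0.09 (-0.15 to 0.29) for *Clock*, and 0.27 ± 0.37 (-0.67 to 1.22) for *Npas2* (edgeR adjusted p = 0.615, 0.765, and 0.784). The genotype effect was not shown to differ between ages (adjusted p = 1 for each), where 2 of 14843 genes (0.0135%) passed.

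For *Arntl* the values of WT and KO are given for H and L apart, and the difference between the collections did not pass over all genes (edgeR adjusted p = 0.312). Each ratio of KO to WT, here and below, sets 1 library against 1 library, and its interval covers counting error only. At H its level in WT and KO was 5.04 and 9.66 CPM at 2 months, 3.97 and 6.08 CPM at 6 months, and 31.5 and 29.6 CPM at 12 months, so that the KO was 1.92 times (95% interval 1.5 to 2.47) and 1.53 times (1.14 to 2.06) the WT in the first pairs and 0.942 times (0.841 to 1.05) in the third. At L it was 4.89 and 1.67 CPM at 2 months, 31.7 and 14.3 CPM at 6 months, and 22.1 and 10.9 CPM at 12 months. The KO was below the WT in all 3 pairs at L by their labels, at 0.341 (0.209 to 0.541), 0.452 (0.386 to 0.527), and 0.492 (0.406 to 0.594) times. In the first of these pairs, at 2 months, the library labelled KO had the higher *Egr1* level, so its label and the direction drawn from it are in doubt.

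A fit with separate effects at H and at L was also made. At L *Arntl* fell in the KO by 1.19 ± 0.20 on the log2 scale, to 0.44 times the WT. It passed over all genes there (edgeR adjusted p = 0.0391), where 78 of 14843 genes (0.526%) did. That call is for L only, and over the 6 pairs *Arntl* did not pass (edgeR adjusted p = 0.615). At H it was at 0.43 ± 0.19 (edgeR unadjusted p = 0.0494, adjusted p = 0.667), where 0 genes (0%) passed and 1105 had an unadjusted p under 0.05. The effect at H exceeded that at L by 1.61 ± 0.27 on the log2 scale (edgeR unadjusted p = 0.000186, rank 8 among 14843 genes), which did not pass over all genes, where 1 gene (0.00674%) did. The difference passed with DESeq2 (adjusted p = 0.00069) and without the filter on low counts (adjusted p = 8.02e-06). Both of these fits also called more genes for this difference than the main fit, with the numbers given below. The call at L was lost without the pair at 2 months L (adjusted p = 0.11), 6 months L (0.102), 12 months L (0.139), or 6 months H (0.0517), with estimates from -1.29 to -1.08 in all 6 leave-one-out fits. In the 4 pairs in which *Egr1* was lower in the KO, a fit added after seeing the data, the effect at L was -1.08 (adjusted p = 0.119) and the difference between H and L was 1.86 (adjusted p = 0.187). The pair at 2 months H was among them, although the interval of its *Egr1* ratio included 1. H and L libraries differ in depth and in time of day, and the collections of an age were not at the same ZT as those of another age.

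The ratio of KO to WT for *Clock* had an interval that included 1 in 4 of the pairs. Its level in WT and KO was 27.7 and 32.4 CPM at 2 months H, 34.6 and 34.5 CPM at 6 months H, and 52.2 and 49.3 CPM at 12 months H. At L it was 27.5 and 27.3 CPM at 2 months, 45.2 and 40.9 CPM at 6 months, and 36.9 and 51.4 CPM at 12 months. The interval of the ratio, which covers counting error only, lay above 1 at 2 months H (1.17, 1.04 to 1.31) and 12 months L (1.39, 1.25 to 1.55). The effects at H and L were 0.04 ± 0.13 and 0.10 ± 0.13 on the log2 scale, and their difference of -0.06 had an edgeR p of 0.735.

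*Npas2* had too few counts at 2 months for a ratio, with 1 and 5 counts in WT and KO at H and 1 count in each at L. At 6 months it had 11 and 1 counts at H and 64 and 136 counts at L, and at 12 months 185 and 192 counts at H and 48 and 61 counts at L. At 6 months L the KO was at 2.00 times the WT (1.48 to 2.74), in the pair in which *Arntl* was at 0.452 times. The effects at H and L were -0.24 ± 0.51 and 0.70 ± 0.46 on the log2 scale, and their difference of -0.94 had an edgeR p of 0.203.

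**Figure D4:**
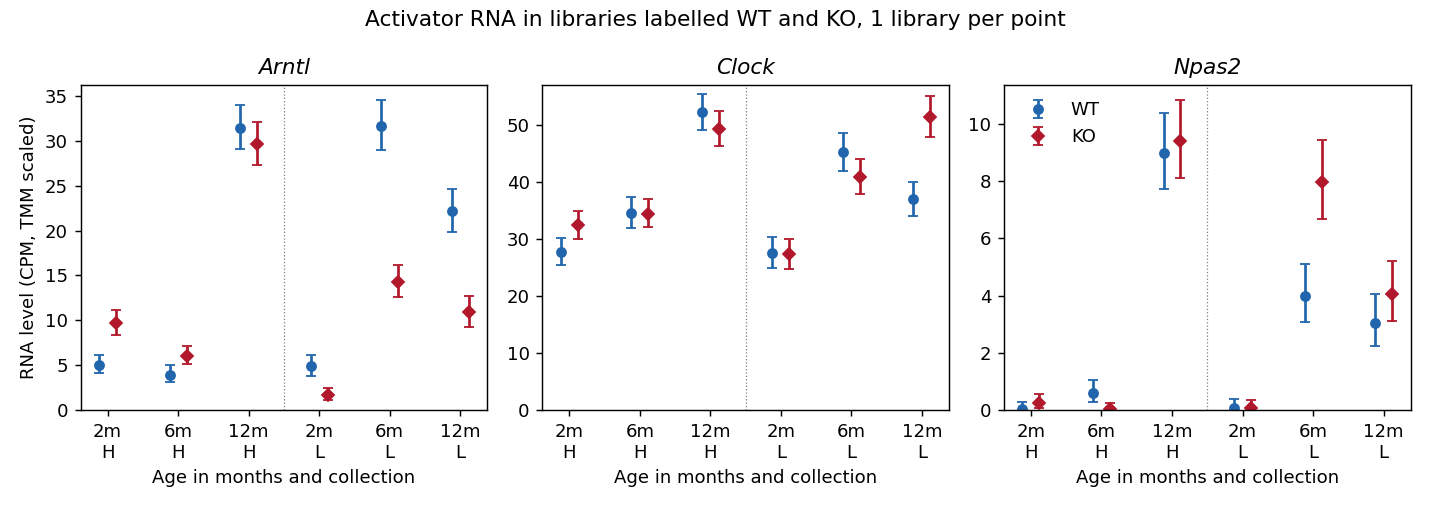
RNA level in CPM (linear axes from 0) of each activator in the libraries labelled WT (circles) and KO (diamonds), by age in months and collection. Each point is 1 library and bars are exact Poisson 95% intervals, which cover counting error only. *Arntl* lay below the WT in the 3 libraries labelled KO at L, at 1.67, 14.3, and 10.9 CPM.

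Of the list of 34 clock genes, 33 were tested between genotypes and 0 passed edgeR over the 6 pairs, at H, at L, or for the difference of H and L. The closest at L was *Nampt*, which encodes an enzyme of NAD synthesis, at 0.58 ± 0.10 (edgeR unadjusted p = 0.00028, adjusted p = 0.0511), higher in the library labelled KO in all 3 pairs at L (1.49, 1.66, and 1.36 times at 2, 6, and 12 months, with the label at 2 months in doubt). *Nr1d1*, whose protein represses *Arntl*, was at -0.99 ± 0.24 at L (edgeR adjusted p = 0.122), with KO libraries at 0.729, 0.572, and 0.287 times the WT, and at -0.01 ± 0.23 at H. *Nfil3* was at -0.65 ± 0.16 at L (edgeR adjusted p = 0.134) and at 0.31 ± 0.16 at H. *Dbp* in the KO at L was at 3.02, 0.524, and 1.35 times the WT at 2, 6, and 12 months. The median log2 fold change over the tested genes of the list was 0.07 at L and -0.09 at H, and 0.00 and -0.01 over all genes tested.

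**Figure D5:**
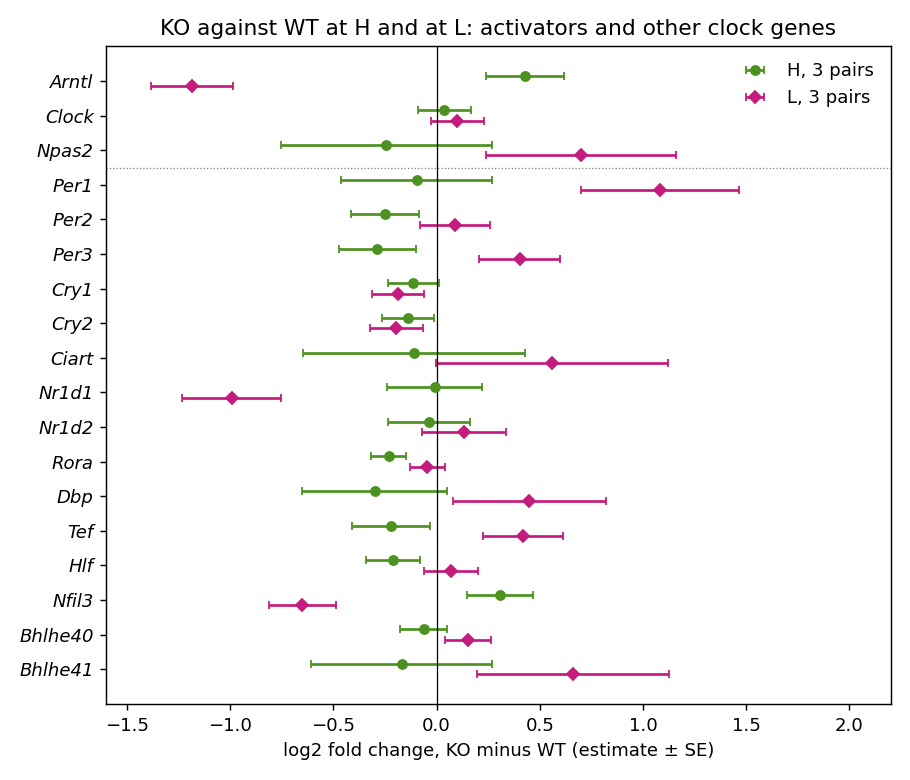
log2 fold change of KO over WT at H (circles, 3 pairs) and at L (diamonds, 3 pairs) for the activators, above the dotted line, and for 15 other clock genes; points are edgeR estimates and bars their standard errors. *Arntl* was at -1.19 at L and 0.43 at H, and *Clock* at 0.10 and 0.04.

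The WT libraries of the genotype experiment can be set beside the time-course libraries of the same age and ZT, without a test, since the tables were counted and scaled separately. *Arntl* was at 5.04 CPM in the WT library at 2 months H and 2.62 CPM in the time course at ZT13, at 4.89 and 13.7 CPM at 2 months L and ZT17, and at 3.97 and 2.16 CPM at 6 months H and ZT9. It was at 31.7 and 20.4 CPM at 6 months L and ZT21, at 31.5 and 10.7 CPM at 12 months H and ZT5, and at 22.1 and 18.9 CPM at 12 months L and ZT21. In the WT libraries of 12 months, *Arntl* was higher at H (ZT5) than at L (ZT21), and in the time course of 12 months it was lower at ZT5 than at ZT21. *Npas2* at 12 months had 8.98 CPM in the WT library at H and 3.23 CPM at ZT5 in the time course.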

How the data were processed

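The authors trimmed reads with fastp, aligned them with HISAT2 to mm10, and counted them per gene with featureCounts (versions and annotation are not given in the sources used here), and the deposited values are raw counts of reads per gene, without normalization. Both tables were used as deposited, and 0 columns of values were left out. Groups came from the labels, with 1 library in each. The members and lists were chosen with earlier results of these data known. The text names the 3 activators, for each the 5 genes most and the 3 least correlated with it over the time course, genes of the clock list, and *Egr1*. Some results under this rule are not reported here. *Nampt*, *Nr1d1*, and *Nfil3* at L were named for their values.

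Tests were edgeR 4.0.16 quasi-likelihood F-tests (R 4.3.3) on genes passing filterByExpr, with TMM factors and Benjamini-Hochberg adjustment over all genes tested. Levels between ages took ZT as a block, rhythms took a cosine and a sine of 24 h, and genotypes took each pair of the same age and collection as a block. DESeq2 1.42.0 and other filters, factors, and blocks served as alternatives. FPKM came from unscaled library totals and GENCODE M21 exon lengths. Of the simulated differences, 96.5% were recovered for level (log2 of 1), 92.5% for rhythm (amplitude of 1), 94.5% for its change (1.5), 94% for genotype (1), and 57% for genotype by collection (1.5), each among 200 changed genes. The changed genes were drawn only from genes over a minimum mean count. All genes were given the same simulated spread and a flat baseline, without a daily rhythm of their own. *Arntl* and *Clock* vary over the day, so these shares need not hold for their tests. *Npas2* lay under that minimum in the time course, so these shares do not apply to its level or rhythm there.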

Additional observations from a re-analysis of the deposited data

Results flagged for a closer look

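*Arntl* is listed because, by library totals, KO lay above WT in every pair at H and below it in every pair at L. The log2 fold change of KO over WT at H minus that at L was 1.613 ± 0.27 (SE, 3 pairs at each collection, edgeR, unadjusted p = 0.000186), from 0.43 at H and -1.19 at L. By the labels and TMM-scaled CPM, *Arntl* was lower in the KO in 3 of 3 pairs at L and higher in 2 of 3 pairs at H. The label of the KO library at 2 months L is in doubt, since *Egr1* was higher in it (7.43 against 1.45 CPM), and without that pair the difference was 1.503 (adjusted p = 0.428). Over all 14843 genes the difference did not pass (adjusted p = 0.312). Its adjusted p ranged from 8.02e-06 without a filter on low counts to 0.723 without the pair at 2 months H, and the value ranged from 1.41 to 1.97 over the leave-one-out fits.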

How the results depend on the processing

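Of 386 alternative values for the activators, 343 kept their result, 14 lost a call, 6 gained one, and 23 changed direction. A result was kept if its direction and its side of the threshold held, and for rhythm the side alone. Most results had no call in the main fit, so they had none to lose. Of 90 values for rhythm, all called in the main fit, 81 kept the call and 9 lost it, with exact p taken unadjusted. The other 5 losses were among 30 values at L in the joint fit, where only *Arntl* had been called. Alternatives for the difference between H and L and for L within the joint fit, and the prior count of 2, were chosen after seeing the data, as were the 4 pairs with lower *Egr1* in KO.

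For level, *Clock* at 6 against 2 months was 0.0099 (log2) without the ZT block, and *Npas2* was -0.0745 without it and -0.045 with all 18 libraries in 1 fit. *Npas2* at 12 against 2 months was 0.178 with DESeq2. Leaving out each ZT gave 6 against 2 months from -0.33 to 0.37 for *Arntl*, -0.15 to 0.11 for *Clock*, and -0.88 to 0.85 for *Npas2*, 12 against 2 months from -0.36 to 0.029, -0.23 to -0.10, and -1.25 to 0.13, and 12 against 6 months from -0.34 to -0.01, -0.21 to -0.06, and -0.78 to -0.36. No level was called in these fits. Genes called numbered 1604, 2033, and 1438 (6 against 2, 12 against 2, and 12 against 6 months), 980 and 898 for the first comparisons without the ZT block, and 2184 without the filter and 2252 with all 18 libraries for the last. Leaving out a ZT gave 885 to 1228, 1368 to 1641, and 628 (without ZT9) to 1499.

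For rhythm, the exact permutation test gave p = 0.1333 for *Clock* and 0.2 for *Npas2* at 2 months, 0.1333 for *Arntl* at 6 and 12 months, and 0.0667 for *Npas2* at 12 months. Its smallest p, 0.0333 without adjustment, was reached by 1080, 1020, and 802 of 12470 genes at 2, 6, and 12 months. The cosine fit called 673, 659, and 504 of 14268 genes at an adjusted p under 0.05. The thresholds differ, so these counts are not comparable. Leaving out a ZT gave adjusted p from 0.00371 to 0.0285, 0.00235 to 0.0563, and 0.00306 to 0.0694 for *Arntl*, 0.00557 to 0.0313, 0.00014 to 0.0924, and 0.0174 to 0.0963 for *Clock*, and 0.000548 to 0.00494, 0.00284 to 0.0161, and 0.00158 to 0.0348 for *Npas2* at 2, 6, and 12 months, and 311 to 493, 283 to 698, and 259 to 459 genes called.

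For the change of rhythm, *Npas2* at 6 against 2 months was called without the filter (3.16 h, adjusted p = 0.0105), and at 12 against 6 months its shift was 0.130 h with DESeq2. Leaving out a ZT gave 6 against 2 months from 1.56 to 2.86 h for *Arntl*, 1.80 to 3.73 h for *Clock*, and 1.80 to 4.65 h for *Npas2*, 12 against 2 months from 0.306 to 1.73, 1.70 to 1.94, and 1.45 to 4.81 h, and 12 against 6 months from -1.46 to -0.85, -2.04 to -0.06, and -0.59 to 0.81 h. Genes called at 6 against 2 months numbered 32, and 164 without the filter, 271 with DESeq2, 15 with all 18 libraries, and 0 to 103 without a ZT. At 12 against 2 months they were 0, and 13 without the filter, 23 with DESeq2, and 0 to 4 without a ZT. At 12 against 6 months they were 3, and 89, 168, 12 with all 18 libraries, and 0 to 8.

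For WT against KO, *Arntl* was 0.41 in the 3 pairs at H alone (adjusted p = 0.48) and -1.20 in the 3 pairs at L alone (adjusted p = 0.0264), and *Npas2* was -0.21 at H alone. Leaving out a pair gave -0.60 to -0.16 for *Arntl*, -0.0071 to 0.11 for *Clock*, and -0.023 to 0.53 for *Npas2*. Genes called were 202, and 636 without the filter, 426 with DESeq2, 21 without the block for the pairs, 2 at H alone, 54 at L alone, 9 in the 4 pairs, and 45 to 137 without a pair. At L in the joint fit, *Arntl* in the 4 pairs was -1.08 (adjusted p = 0.119). Leaving out a pair gave -1.29 to -1.08 for *Arntl*, -0.0995 to 0.23 for *Clock*, and 0.37 to 0.94 for *Npas2*, and 7 (without 12 months L) to 59 genes called, against 78, and 604 without the filter, 282 with DESeq2, and 11 in the 4 pairs. The difference between H and L for *Arntl* passed without the filter (1.61, adjusted p = 8.02e-06) and with DESeq2 (1.66, adjusted p = 0.00069). Leaving out a pair gave 1.41 to 1.97 for *Arntl*, -0.19 to 0.15 for *Clock*, and -1.73 to -0.45 for *Npas2*. It was called for 1 gene, and for 117 without the filter, 23 with DESeq2, 0 in the 4 pairs, and 0 to 3 without a pair. The cause of these changes was not tested. By Spearman's rho, 2 of the 5 genes named for *Arntl* and 1 of those for *Npas2* stayed among the 5 most alike.

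No paired analysis by replicate number was possible because the labels give none. Libraries at or near 0 counts limit *Npas2* from ZT5 to ZT17 at 2 months and from ZT9 to ZT17 later, and with 1 library for each age and time no spread between mice was measured.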
